A study of Drosophila melanogaster and Drosophila melanogaster
Drosophila virilis and Drosophila virilis with 9 samples.

Results

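The genes described here are 5 transcription factor genes of the Drosophila mesoderm, twist (twi), snail (sna), Mef2, zfh1 and tinman (tin), out of 15600 D. melanogaster genes in the single-cell tables. They were listed by name, with no threshold on a measured value but with earlier results of these data known, and all 5 were found in every table. The series profiled stage 6 embryos, at the onset of gastrulation, with Drop-seq, a droplet method that tags the mRNA of single cells with a cell barcode and every molecule with a unique molecular identifier (UMI). There were 2 mixed-species Drop-seq libraries (replicates 1 and 2, D. melanogaster together with D. virilis), 5 single-species Drop-seq libraries (replicates 3 to 7, D. melanogaster alone) and 1 bulk mRNA library of intact, unfixed embryos for each species. Every D. melanogaster sample, with no other control strain, was of a y1 w1118 strain with the insertions P{st.2::Gal4}, a Gal4 driver, and P{vnd::dsRED}, a dsRed reporter, and all D. virilis samples were of 1 strain. Egg lays lasted 1 h, D. melanogaster embryos were aged for 2 h 30 min and D. virilis embryos for 3 h 30 min. Embryos were picked by hand, and the dissociated cells were fixed in 80% methanol.

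Twist, a basic helix-loop-helix activator, and Snail, a zinc finger protein that mostly represses, are switched on by the Dorsal gradient in the ventral cells that invaginate to form the mesoderm. Twist then activates tin, an NK homeobox gene later needed for the heart and visceral muscle, and Mef2, a MADS-box gene needed for muscle differentiation. zfh1 encodes a zinc finger and homeodomain repressor that is known in the mesoderm, in haemocyte precursors and around the germ cells.

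In the BDGP6.54 annotation, sna lies on chromosome 2L at 15476593 to 15478260 on the minus strand, has 1 transcript and overlaps no other annotated gene. tin lies on 3R at 21378977 to 21381970 on the plus strand, also with 1 transcript and no overlap. Mef2 lies on 2R at 9913496 to 9958858 on the minus strand, has 11 transcripts and holds 1 annotated transposable element. zfh1 lies on 3R at 30765926 to 30789202 on the plus strand with 3 transcripts and overlaps 1 antisense RNA. twi lies on 2R at 22985374 to 23048325 on the plus strand with 3 transcripts, and 4 other annotated genes lie within that span. The bulk libraries were unstranded, per the labels, and the strand setting of the Drop-seq counting is not given in the sources used here. These overlaps are of whole gene spans, and whether exons of twi or zfh1 overlap those of another gene was not checked. Where they do, strand may not separate the reads.

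The 7 Drop-seq tables held 11329 barcodes and 102732563 UMIs. A barcode counted as a D. melanogaster cell with at least 1000 UMIs, at least 90% of them on that species' genes, which gave 7999 cells, and 5102 of these had at least 3000 UMIs, from 326 cells in replicate 6 to 1055 in replicate 3. At most 5 barcodes were shared by any 2 libraries, and 6 barcodes occurred in more than 1. When all 7999 cells were counted, replicate 6 was the shallowest library (median depth 1936 UMIs). When only cells with at least 3000 UMIs were kept, it was the deepest (median depth 11991 UMIs). The other libraries then ran from 6382.5 UMIs (replicate 1) to 11461 UMIs (replicate 3). Doublets of 2 D. melanogaster cells cannot be recognised in these tables and were not removed. The labels do not say whether the libraries came from separate embryo collections, so p-values measure the spread between libraries, which may be technical.

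All 5 genes were detected in a minority of cells in every library. To compare shares at equal depth, each cell of at least 3000 UMIs was thinned at random to exactly 3000. twi then had a UMI in 17.6% of cells in the lowest library, 24.4% in the median and 26.4% in the highest, and averaged 22.8% ± 3.52 (SD, n = 7). sna had a UMI in 15.3%, 17.8% and 22.3% of cells in the lowest, median and highest library, with a mean of 18.6% ± 2.79 (SD, n = 7). zfh1 followed with a mean of 13.5% ± 1.79, Mef2 with 9.00% ± 1.40 and tin with 7.40% ± 0.849 (SD, n = 7 each). The ranges over libraries overlapped between twi and sna, between zfh1 and Mef2 and between Mef2 and tin. They did not between sna (lowest 15.3%) and zfh1 (highest 14.97%). Within every single library, twi was above sna and zfh1 above Mef2. Mef2 was above tin except in replicate 4 (8.17% and 8.29%) and replicate 5 (7.85% and 8.65%). In summed counts, the level was 162 ± 25.5 CPM (a gene's counts scaled to a common library total) for twi, 112 ± 14.1 for sna, 82.4 ± 20.5 for zfh1, 43.1 ± 7.15 for Mef2 and 36.3 ± 4.37 for tin (SD, n = 7 each). zfh1 spread the most for its level, between 53.1 and 107 CPM, and single cells held up to 166 zfh1 UMIs and 125 twi UMIs.

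**Figure D1:**
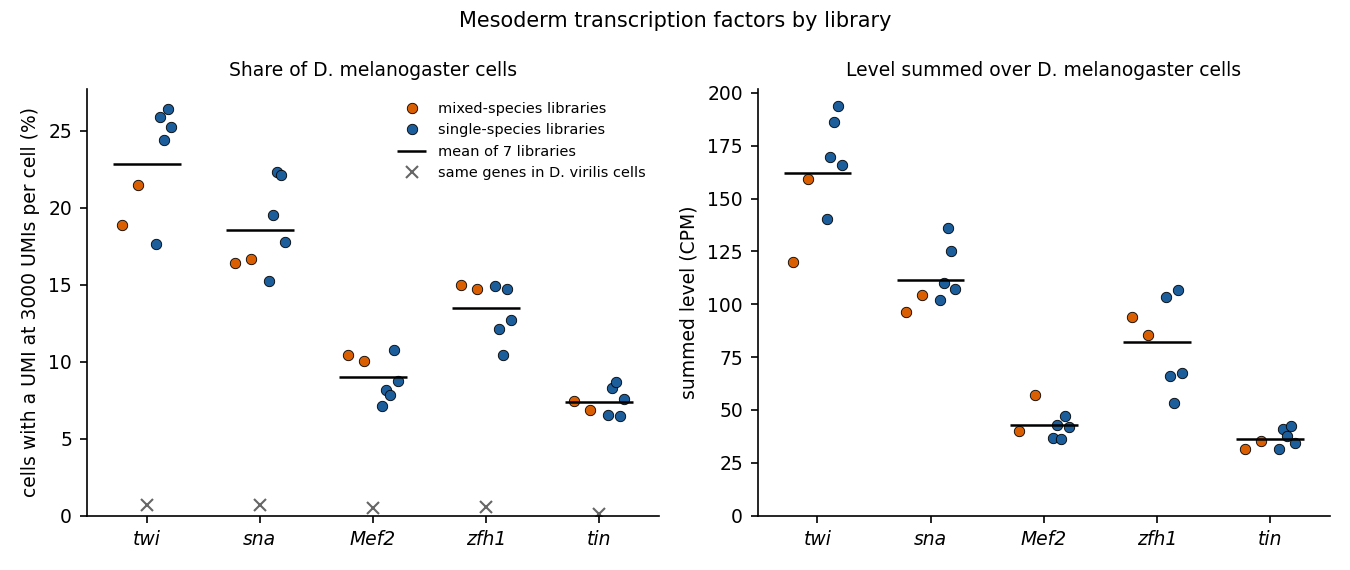
Left, the share of D. melanogaster cells with a UMI of each gene after thinning to 3000 UMIs per cell (%), and right, the summed level (CPM), with 1 point per library, mixed-species and single-species libraries side by side and a line at the mean of the 7 libraries. Crosses mark the same genes in the D. virilis cells of both mixed libraries pooled, where every share lies below 1%, under the lowest D. melanogaster library of each gene. This background was not measured in the single-species libraries.

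The D. virilis cells of the mixed libraries show how often free RNA or misassigned reads give a UMI. Among 1806 such cells thinned to the same depth, D. melanogaster sna was seen in 0.720% (95% exact binomial interval 0.384 to 1.23), twi in 0.664% (0.344 to 1.16), zfh1 in 0.554%, Mef2 in 0.498% and tin in 0.111%. Median depth before thinning was 5591 UMIs (replicate 1) and 9344 UMIs (replicate 2) in D. virilis cells and 6382.5 and 8938 UMIs in D. melanogaster cells. These intervals cover counting error only. The reverse also held: D. virilis twi had a UMI in 22.1% of the D. virilis cells (20.3 to 24.1), and in 0.781% of D. melanogaster cells of replicate 1 and 0.965% of those of replicate 2. D. melanogaster twi was found in 18.9% and 21.5% of the D. melanogaster cells of those libraries, while D. virilis twi was found in 23.3% and 20.3% of D. virilis cells. These shares overlap between the species, and with 2 libraries no test was made. The D. virilis twi level was 168 CPM in replicate 1 and 156 CPM in replicate 2. Its bulk level was 256 CPM.

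The summed Drop-seq counts and the bulk library of the same D. melanogaster strain can be set side by side, without a test, since there was 1 bulk library. twi stood at 162 CPM in Drop-seq and 282 CPM in bulk, a ratio of 0.575. The ratios were 0.690 for sna, 0.591 for tin and 0.558 for zfh1, so these 4 genes were lower in the cell libraries, whereas Mef2 had 43.1 CPM in Drop-seq and 41.8 CPM in bulk, a ratio of 1.03. Drop-seq reads come from the 3′ end of each transcript and bulk reads from its whole length. The cells were also dissociated and fixed, while the bulk embryos were intact and unfixed. What these differences add to each ratio was not tested. Per kilobase of exon, bulk levels were 118 CPM for twi, 97.0 for sna, 36.9 for tin, 21.3 for zfh1 and 4.55 for Mef2. On that scale Mef2, which has the longest exonic sequence of the 5 (9188 bases), was the lowest.

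The authors' pooled table of 1297 deeply sequenced cells ends each column name with a number from 1 to 11. What the number stands for is not given in the sources used here, but the cells that share one also share leading genes, and the groups are called by number here. If the groups are clusters, these genes may have helped to define them, so their levels are described without tests. Group 4 (298 cells) carried the 5 genes together: twi had UMIs in all 298 cells, sna in 296, zfh1 in 287, tin in 274 and Mef2 in 262, and 239 cells had UMIs of all 5. All 7 listed mesoderm markers (Ilp4, htl and stumps beside 4 of the 5 genes, tin not being on the list) were higher there than in the other cells. Ilp4, htl and stumps, which are not among the 5 genes, are the basis for calling it mesoderm-like. The 7 markers summed to 4796 CPM there and to 5150 CPM in group 9. These 298 of 1297 cells held 78.4% of all tin UMIs, 71.9% of Mef2, 71.5% of twi, 68.9% of sna and 58.4% of zfh1. Its levels were 632 ± 65.0 CPM for twi, 415 ± 57.5 for sna, 254 ± 47.5 for zfh1, 158 ± 15.3 for tin and 155 ± 44.5 for Mef2 (SD over n = 7 libraries).

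Outside group 4, the 5 genes did not keep the same proportions. Group 9 (48 cells), led by gcm, ham and CrebA, with srp also among its leading genes, had twi and zfh1 in every cell and sna in 46. gcm and srp, a glial and haemocyte determinant and a GATA factor, mark the haemocyte precursors of the head mesoderm, but with 2 such markers measured the group is left unnamed. It also had 6 of the 7 mesoderm markers above the other cells. zfh1 reached its highest level there, 762 CPM in the group's sum and 619 ± 268 CPM over 6 libraries, with a median of 16 UMIs per cell, against 5 UMIs in group 4. These 48 cells held 23.9% of all zfh1 UMIs. tin and Mef2 were lower in the same cells than in group 4. tin had a UMI in 16 of 48, at 26.0 CPM, and Mef2 in 26 of 48, at 58.6 CPM. Over all pooled cells tin stood at 52.5 CPM and Mef2 at 59.15 CPM, so Mef2 in group 9 was near the level of the whole table. Median depth was 21812 UMIs in group 9 and 24211.5 in group 4.

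Group 2 (49 cells), led by ImpE2, Aldh and hkb, with fkh and croc also leading, held twi in 44 cells and sna in 39. hkb and fkh are regulators of the terminal regions and the gut. Mef2 was seen in 13 of its 49 cells, at 14.1 CPM, zfh1 in 14, at 94.7 CPM, and tin in 26, at 46.5 CPM. Only 2 of these cells had all 5 genes. Group 8 (66 cells), led by byn, klg and ken, with the posterior genes cad and Abd-B, was divided: 32 cells had no UMI of any of the 5 genes, and 18 had 4 or 5 of them. twi stood at 200 CPM, sna at 164, zfh1 at 137 and Mef2 at 98.3 CPM, whereas tin had a UMI in 9 cells, at 18.2 CPM. Thus tin was low in group 9 and group 8, and Mef2 was low in group 2, while twi and sna were present in all 3.

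In group 5 (82 cells) tin was detected about as often as in group 9, but the other 4 genes were low. Group 5 was led by Optix, CG14204 and fd102C, with 5 of 5 head markers (oc, ems, hbn, btd and tll) higher than in all other cells pooled, and is head-like. The 5 head markers summed to 468 CPM there and to 507 CPM in group 10, where 3 of the 5 were higher than in all other cells pooled. In group 5 tin had a UMI in 26 cells (31.7%, exact interval 21.9 to 42.9), beside 33.3% in group 9. In the group's sum tin was at 35.3 CPM, while twi was at 18.1, sna at 7.95, Mef2 at 5.74 and zfh1 at 2.21 CPM. Over 7 libraries tin averaged 31.6 ± 26.0 CPM, from 0 to 79.8, and twi 27.1 ± 43.7 CPM, from 3.74 to 125, so their libraries overlapped widely. twi had UMIs in 21 of these cells, sna in 13, Mef2 in 9 and zfh1 in 5. Group 3, the largest (632 cells, led by ths, ind and CG34224, with all 8 neurogenic ectoderm markers higher), had no UMI of any of the 5 genes in 338 cells, but all 5 in 38 cells, and up to 64 twi UMIs in 1 cell. Groups 6 (52 cells, led by peb, zen2 and zen) and 10 (25 cells, led by grn) had none of the 5 genes above 12.5 CPM. Group 7 (34 cells, led by CG2930, Pdp1 and DNaseII, with fkh also leading and 6 of 7 terminal and gut markers higher) had a twi UMI in 16 cells, at 45.4 CPM, a sna UMI in 9, at 54.5 CPM, and a Mef2 UMI in 11, at 33.7 CPM. zfh1 was at 16.9 CPM there, and tin had a UMI in 2 cells, at 3.89 CPM. Over 6 libraries sna in group 7 ran from 0 to 235 CPM. Groups 1 and 11 held 4 and 7 cells and are too small to describe. Across the table, 300 cells had all 5 genes and 458 had none.

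**Figure D2:**
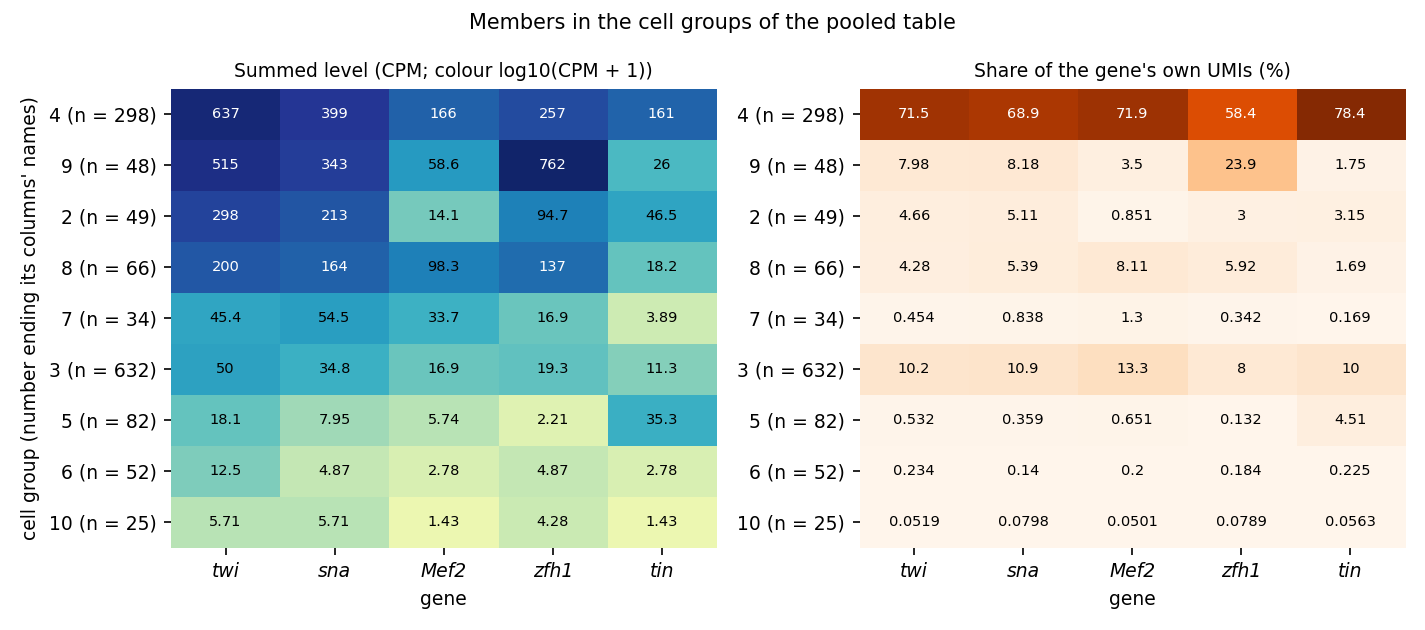
The 5 genes (columns) in the numbered cell groups of the pooled table (rows, groups of under 10 cells left out), as summed level in CPM (left, colour on a log10 scale) and as the share of each gene's own UMIs that fell in the group (right, %). Group 4 is high for all 5 genes, zfh1 peaks at 762 CPM in group 9, and tin in group 5 stands at 35.3 CPM while the other 4 genes lie below 20 CPM.

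In all libraries together, the 5 genes tended to be in the same cells. After thinning, 3210 of 5102 cells had a UMI of none of them (mean 62.0% ± 5.21, SD, n = 7), 878 of 1 gene, 533 of 2, 323 of 3, 136 of 4 and 22 of all 5. A cell with a tin UMI had a twi UMI in 59.4% ± 7.21 of cases and a cell without one in 19.9% ± 3.82 (SD, n = 7). A cell with a Mef2 UMI had a zfh1 UMI in 38.8% ± 11.8 of cases and a cell without one in 11.0% ± 1.05. Co-detection was measured as log2 of the number of cells with UMIs of both genes over the number that independent detection in the same library gives, with 0.5 added to each. For all 10 pairs of the 5 genes it was above 0 in 7 of 7 libraries, from 1.24 ± 0.37 for twi and Mef2 (250 cells with both, 99.6 given by independence) to 1.46 ± 0.32 for Mef2 and tin (102 cells, 33.1 given by independence). Each had an exact sign-flip permutation p of 0.0156, two-sided, the smallest that 7 libraries allow, and an adjusted p of 0.0160 over 40 pairs. The 5 genes and the partner genes below were chosen with earlier results of these data known, so these p-values are not independent evidence of the directions.

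The same measure was taken against 6 partner genes. With htl, the mesodermal FGF receptor, and stumps, its intracellular partner, all 10 pairs were also above 0 in every library, from 1.27 ± 0.35 (sna and stumps) to 1.56 ± 0.26 (Mef2 and stumps). With sog and SoxN, genes of the neurogenic ectoderm, and zen and Doc2, genes of the dorsal ectoderm and amnioserosa, all 20 pairs were below 0, in 7 of 7 libraries for 19 of them. The exception was Mef2 and sog, at -0.43 ± 0.42 with 6 of 7 libraries below 0 (exact p = 0.0312). All 40 pairs passed an adjusted p of 0.05. Pairs with sog were the least depleted (-0.28 ± 0.17 for twi to -0.52 ± 0.22 for tin), and the lowest was zfh1 with zen (-1.78 ± 1.19), which rests on 11 cells with both.

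**Figure D3:**
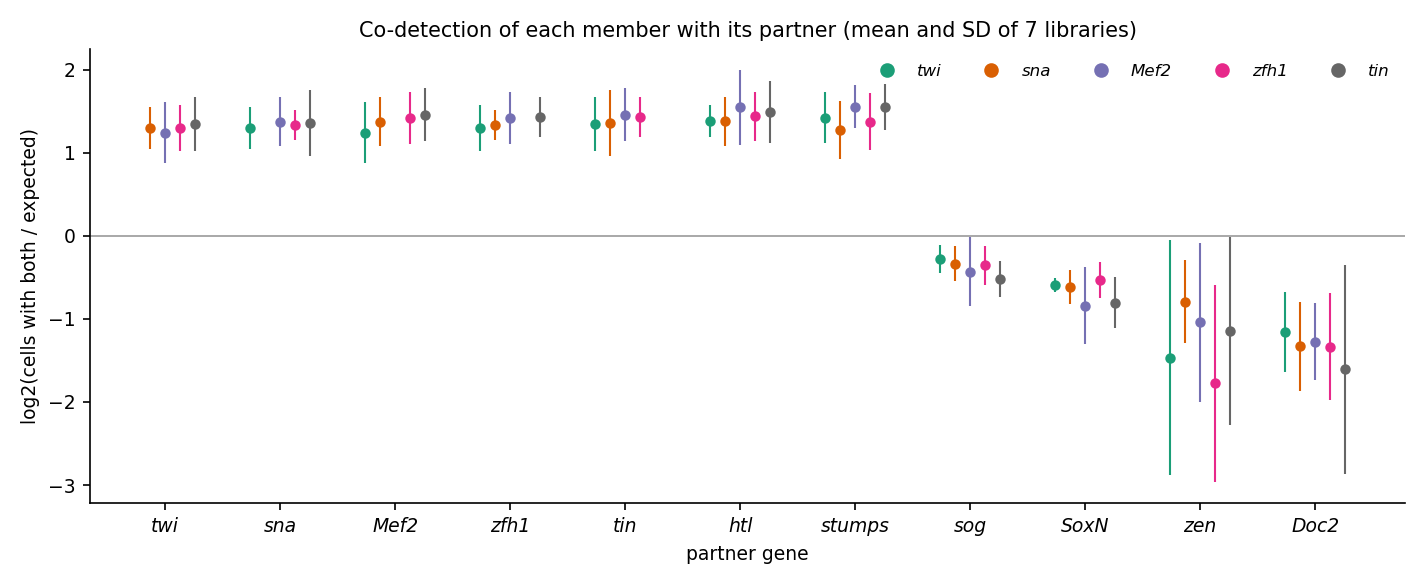
Co-detection of each of the 5 genes (colours) with every other and with 6 partner genes (horizontal axis), as log2 of observed over expected cells with both, points and bars giving the mean and SD of 7 libraries. All pairs among the 5 genes and with htl and stumps lie between 1.24 and 1.56, and all pairs with sog, SoxN, zen and Doc2 lie below 0.

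As a description, genes detected in at least 1% of cells and with at least 10 cells with both given by independence were ranked by the same ratio with each of the 5. The nearest to twi were stumps (1.42 ± 0.31), htl, tin, Act87E and CG14687, and the nearest to sna were htl (1.38 ± 0.29), Mef2, tin, Act87E and zfh1. For tin they were if (1.58 ± 0.22), an integrin alpha subunit gene, stumps, Act87E, htl and Mef2. For Mef2 they were CadN (1.62 ± 0.26), a cadherin of the mesoderm and nervous system, if, stumps, htl and CR45361, and for zfh1 CadN (1.63 ± 0.23), if, CG14687, NetB and htl. The likeness was taken over 7 libraries, and the leading values lie close together for their SDs. With twi, for example, sna stood at rank 10 with 1.30 ± 0.26, so the order of these genes is uncertain. The second threshold left fewer genes with the rarer tin (5144) and Mef2 (5403) than with twi (5752), so the lists are not over the same genes.

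Cells in which sna and twi each had a UMI were next compared with cells with no UMI of either, to ask whether the other 3 genes go with that pair. Full UMI counts were summed per library, and sna and twi, which defined the cells, were left out of all counts. The double-positive cells numbered 514 (10.4% ± 1.64 of cells, SD, n = 7) and the negative cells 3567. zfh1 had 140, 236 and 315 CPM in the lowest, median and highest library of double-positive cells, against 16.3, 21.2 and 37.6 CPM in double-negative cells. Mef2 had 79.2, 122 and 187 CPM in double-positive cells, against 8.53, 12.8 and 15.8 CPM in double-negative cells. tin had 99.8, 110 and 127 CPM in double-positive cells, against 7.66, 11.1 and 15.4 CPM in double-negative cells. The 2 kinds of cells did not overlap for any of the 3, and the share of all genes without overlap was not counted. Their log2 changes were 3.30 ± 0.11 for zfh1 (SE; edgeR quasi-likelihood test, adjusted p = 1.92e-16), 3.33 ± 0.13 for Mef2 (adjusted p = 1.28e-15) and 3.30 ± 0.12 for tin (adjusted p = 4.29e-16), each higher in 7 of 7 libraries. Of all 6522 genes tested, 20.6% passed (1345 genes), 8.85% higher and 11.8% lower. Double-positive cells were deeper in 7 of 7 libraries, with median depths of 7844 to 21789.5 UMIs, against 6212 to 10475 UMIs in double-negative cells. In sums of thinned counts, where depth is equal, the log2 changes were 3.22 for zfh1, 3.10 for Mef2 and 3.23 for tin. In such sums, as in bulk, more cells expressing a gene and more RNA per cell cannot be told apart.

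Most of the listed mesoderm genes rose with the pair. The lists were chosen with earlier results of these data known, so their counts are not independent evidence of the directions. Of 16 genes tested from a list of mesodermal FGF and early mesoderm genes, 13 rose and 3 fell, with a median log2 change of 1.86, beside a median of 0.01 for all genes. The largest included stumps (3.46 ± 0.12), htl (3.39 ± 0.13), CG4500 (3.22 ± 0.09) and CadN (3.11 ± 0.11). The 3 that fell were pyr (-2.39 ± 0.13) and ths (-2.06 ± 0.11), the FGF ligands that signal to Htl from the neighbouring ectoderm, and T48 (-0.37 ± 0.12, adjusted p = 0.0264), a gene of apical constriction. T48 lost its call with any 1 of replicates 2, 3 or 4 left out (-0.27 without replicate 2). Of 11 genes that Snail keeps out of the mesoderm or that mark the neurogenic ectoderm, 10 fell, among them rho (-2.04 ± 0.11), SoxN (-1.60 ± 0.09) and sog (-1.38 ± 0.11), and wntD, a Wnt that feeds back on Dorsal, rose (1.81 ± 0.13). All 10 markers of dorsal ectoderm and amnioserosa fell, for example zen (-2.41 ± 0.19) and pnr (-2.28 ± 0.14), and dpp, the dorsal BMP ligand, fell by 2.65 on the log2 scale. Their summed level was 80.7 to 264 CPM in double-positive cells and 513 to 737 CPM in double-negative cells. Of 8 tested upstream regulators and cofactors, cact and CtBP rose and spz and da fell. Of the relatives of the 5 genes, esg and zfh2 were tested and both fell (-1.85 ± 0.15 and -0.87 ± 0.11). Of the haemocyte genes, gcm rose (2.28 ± 0.31) in 6 of 7 libraries and srp fell by 0.35, a call that was lost with any 1 of replicates 1, 2, 4, 6 or 7 left out (-0.22 without replicate 4).

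**Figure D4:**
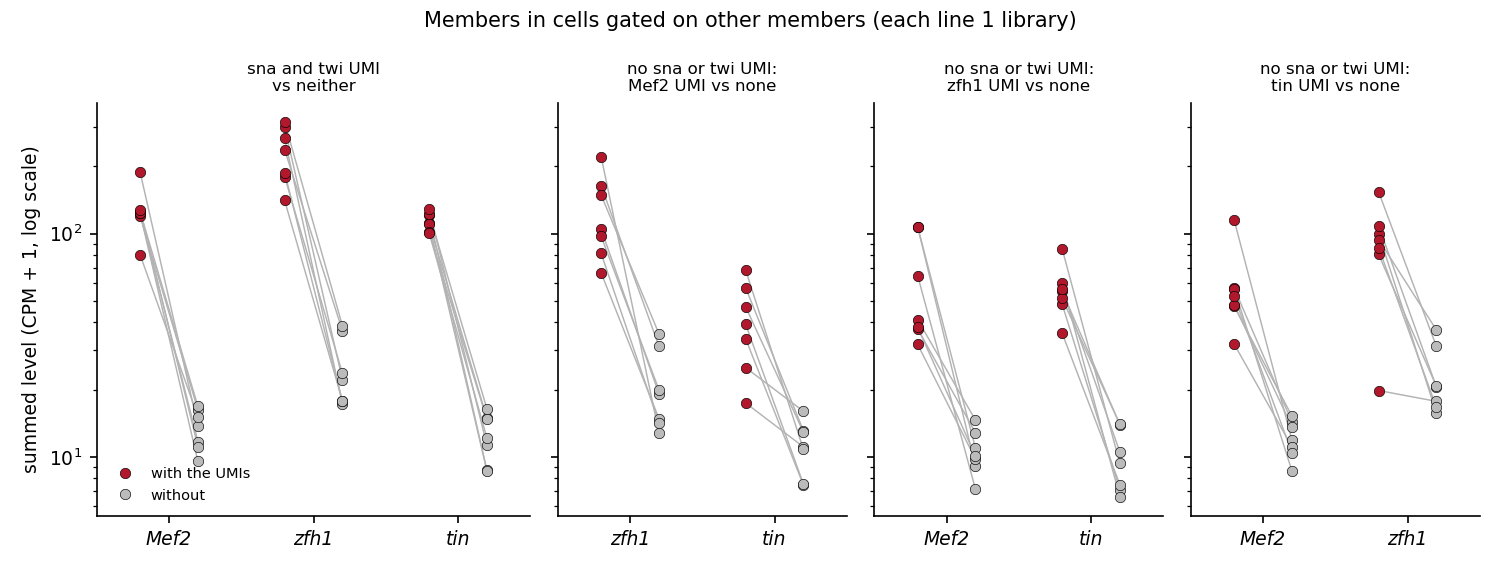
Summed level of Mef2, zfh1 and tin (CPM + 1, log scale) in cells with the named UMIs (red, left of each pair) and without them (grey, right), each line 1 of 7 libraries. In the first panel the double-positive libraries lie at 79.2 CPM or above and the double-negative ones at 37.6 CPM or below, and in the other panels every line falls to the right.

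Cells with a UMI of sna and none of twi (404 cells) were compared with cells with a UMI of twi and none of sna (617 cells). Of the 5307 genes tested 0.415% passed (22 genes, 0.339% higher and 0.0754% lower), and none of zfh1, Mef2 and tin was among them. Mef2 was at 78.8 ± 27.7 CPM in sna-only cells and 85.3 ± 22.5 CPM in twi-only cells, with a log2 change of -0.22 ± 0.15. zfh1 was at 144 ± 61.3 CPM in sna-only cells and 178 ± 75.2 CPM in twi-only cells (-0.29 ± 0.10, edgeR adjusted p = 0.545). tin was at 60.1 ± 14.8 CPM in sna-only cells and 67.3 ± 9.996 CPM in twi-only cells (-0.23 ± 0.14). Libraries of the 2 kinds overlapped for all 3 genes. Higher in sna-only cells were hkb (1.00 ± 0.15, adjusted p = 0.000605), fkh (0.69 ± 0.12) and apt (0.57 ± 0.13), 3 of 6 tested markers of the terminal regions and gut. pgc, a pole cell gene, was also higher (1.73 ± 0.27). In twi-only cells sog, the dsRed reporter transcript and Ilp4, an insulin-like gene of the mesoderm, were higher, so that their changes were -0.59 ± 0.11, -0.84 ± 0.14 and -0.28 ± 0.04. sna-only cells were deeper in 1 of 7 libraries, and in the pooled barcodes hkb (-0.44), fkh (-0.61) and apt (-0.10) turned round. pgc turned to -0.43 with 2 UMIs needed, the dsRed transcript to 0.059 at 1500 UMIs, and sog to 0.035 at 1500 and 0.15 at 5000 UMIs. fkh was no longer called without replicate 3 (0.62), and apt without replicate 2, 5 or 6 (0.41 without replicate 6). In full counts these cells were not pure: sna-only cells still held 225 ± 48.8 CPM of twi and twi-only cells 164 ± 32.9 CPM of sna.

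Among cells with no UMI of sna or twi, those with a UMI of 1 of the other 3 genes were compared with those without it. 125 cells had Mef2, 191 zfh1 and 106 tin. In each comparison both of the remaining genes were higher in 7 of 7 libraries. In Mef2-positive cells zfh1 had 65.6, 104 and 220 CPM (lowest, median and highest library), against 11.8, 18.2 and 34.6 CPM in Mef2-negative cells (log2 change 2.65 ± 0.20, edgeR adjusted p = 2.73e-12), and tin had 16.4, 38.3 and 67.7 CPM, against 6.48, 10.1 and 14.99 CPM (1.99 ± 0.27). The groups did not overlap for either gene, and here too the share of all genes without overlap was not counted. The change of tin with Mef2 stayed called in 14 of 15 alternatives, with values from 1.28 to 2.40. In zfh1-positive cells Mef2 (2.69 ± 0.26) had 30.9, 40.2 and 106 CPM, against 6.17, 9.08 and 13.6 CPM in zfh1-negative cells, and tin (2.66 ± 0.24) had 34.8, 54.2 and 84.5 CPM, against 5.61, 8.33 and 12.97 CPM, again without overlap. In tin-positive cells Mef2 (2.33 ± 0.28) had 31.0, 51.3 and 114 CPM, against 7.64, 10.9 and 14.2 CPM in tin-negative cells. zfh1 (2.07 ± 0.22) had 18.8, 93.0 and 153 CPM in tin-positive cells, against 14.7, 19.5 and 36.0 CPM in tin-negative cells, and here 1 low library overlapped. The share of all genes called higher was 1.5% of 6147 for Mef2, 2.37% of 6117 for zfh1 and 1.32% of 6127 for tin. The share called lower was 0.976% for Mef2, 2.71% for zfh1 and 1.8% for tin. The total calls, 2.47%, 5.08% and 3.12% of those genes, were 152, 311 and 191. For Mef2 the count was 97 without replicate 4. Such cells were not free of sna and twi in full counts. In Mef2-positive cells sna stood at 113 ± 21.1 CPM, against 22.1 ± 6.39 CPM in Mef2-negative cells. It stood at 123 ± 44.3 against 19.7 ± 8.54 CPM for zfh1 and at 101 ± 67.4 against 23.4 ± 7.27 CPM for tin. twi stood at 154 ± 44.0 CPM in Mef2-positive, 180 ± 76.6 CPM in zfh1-positive and 193 ± 57.7 CPM in tin-positive cells. In the matching negative cells twi stood at 30.9 ± 11.2, 27.1 ± 11.2 and 31.1 ± 12.2 CPM.

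In all 3 sets of cells most of the listed early mesoderm genes rose. The differences between the sets were not tested. Of 16 early mesoderm genes tested in each, 11 rose in Mef2-positive, 11 in zfh1-positive and 10 in tin-positive cells, and ths fell in all 3. CadN rose by 3.23 ± 0.17 with Mef2, by 3.48 ± 0.21 with zfh1 and by 2.39 ± 0.20 with tin, and htl by 2.93 ± 0.26, 3.07 ± 0.25 and 2.58 ± 0.31. With zfh1, 8 of 10 dorsal markers and 8 of 11 genes of the Snail and neuroectoderm list fell. With Mef2 it was 2 of 10 and 2 of 11, and with tin 5 of 10 and 5 of 11. Beside these, 2.71% of all genes were called lower with zfh1, 0.976% with Mef2 and 1.8% with tin. The positive cells numbered 191, 125 and 106, so the counts are not at equal power. zfh1-positive cells also had more gcm (3.44 ± 0.59, higher in 4 of 7 libraries) and CrebA (2.23 ± 0.24, higher in 7 of 7). CrebA was picked out after its values were seen. In addition, 3 of 5 tested pole cell markers rose there. One of those was nos, at 41.9 ± 41.6 CPM in zfh1-positive and 10.1 ± 4.91 CPM in zfh1-negative cells, higher in 4 of 7 libraries. nos was not called without replicate 3 (1.33) and turned to -1.83 with 2 UMIs needed. The summed pole cell markers ran from 59.5 to 1912 CPM over libraries in zfh1-positive cells and from 255 to 586 CPM in zfh1-negative cells, and their part in the result was not tested.

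In tin-positive cells without sna and twi UMIs after thinning, ImpL3, lactate dehydrogenase, rose by 3.03 ± 0.33. croc, a forkhead gene of the anterior foregut and head, rose by 2.96 ± 0.34 and ab by 2.91 ± 0.31. The long non-coding RNA gene CR45361 rose by 2.91 ± 0.29 and fd102C, another forkhead gene, by 2.76 ± 0.36. CR45361 was also among the 5 leading genes with Mef2 (2.85 ± 0.28) and with zfh1 (3.12 ± 0.28). All 5 leading genes with tin were higher in 7 of 7 libraries and remained called in every alternative that could be computed for them. croc stood at 60.1 ± 58.7 CPM in tin-positive and 7.29 ± 4.15 CPM in tin-negative cells, and fd102C at 66.0 ± 65.8 CPM and 8.80 ± 3.54 CPM. In the same cells Abd-B, the posterior Hox gene, fell by 1.40 on the log2 scale, and of 4 head markers tested none rose and ems fell (-2.20 ± 0.64), although ems lost its call without any 1 of replicates 1, 2, 3, 4 or 6 (-1.86 without replicate 4). In the pooled table, fd102C and croc are both among the leading genes of group 5, and croc and ImpL3 among those of group 2, the groups in which tin stood at 35.3 and 46.5 CPM.

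Inside the 514 double-positive cells, the question was whether 1 of the later genes marks a subset. The cells were split by UMIs after thinning, so the negative cells were not free of the gene in full counts. zfh1-negative cells held 137 ± 39.4 CPM of zfh1, against 327 ± 65.5 CPM in zfh1-positive cells. The values were 80.0 ± 18.5 against 224 ± 45.8 CPM for Mef2 and 77.7 ± 17.7 against 209 ± 38.0 CPM for tin. zfh1-positive cells were deeper than zfh1-negative cells in 6 of 7 libraries, Mef2-positive cells in 6 of 7 and tin-positive cells in 2 of 7. For zfh1 (215 cells with a UMI and 299 without), neither Mef2 nor tin was called, beside 0.38% of the 4476 genes tested (0.268% higher and 0.112% lower). Mef2 was at 146 ± 34.4 CPM in zfh1-positive and 109 ± 31.3 CPM in zfh1-negative cells (0.38 ± 0.11, edgeR adjusted p = 0.199), and tin at 110 ± 15.8 and 114 ± 17.4 CPM (-0.06 ± 0.10), with the libraries overlapping for both. CadN (0.88 ± 0.11) and NetB, a netrin (0.89 ± 0.14), rose with zfh1 in 7 of 7 libraries, as did sty, the FGF and EGF signalling inhibitor sprouty (0.50 ± 0.09). CrebA, singled out after its values were seen, was higher too (1.502 ± 0.32, adjusted p = 0.0324, 6 of 7 libraries), but not without replicate 3 (1.06), 5 or 7. The 17 genes called became 11, 10, 4 and 7 without replicate 2, 3, 5 or 7 and 35 without replicate 6.

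For Mef2 (148 cells with a UMI and 366 without), tin was the member that was called. tin had 116, 128.4 and 259 CPM (lowest, median and highest library) in Mef2-positive cells and 74.6, 92.9 and 112 CPM in Mef2-negative cells. These ranges do not overlap, but the share of all genes without overlap was not counted. The log2 change of tin was 0.67 ± 0.14 (edgeR adjusted p = 0.0180, higher in 7 of 7 libraries). The call was lost with DESeq2, with thinned sums, at other depths of thinning and without replicate 3, 4 or 7, with values from 0.20 to 0.76 over all 16 alternatives. zfh1 was at 267 ± 83.7 CPM in Mef2-positive and 216 ± 61.7 CPM in Mef2-negative cells (0.30 ± 0.09, adjusted p = 0.131), higher in 7 of 7 libraries. Of all 4535 genes tested, 0.772% passed (35 genes, 0.397% higher and 0.375% lower). CadN (0.60 ± 0.09), stg, the mitotic phosphatase string (0.48 ± 0.09), and fz, a Wnt receptor (0.71 ± 0.13), rose with Mef2. Ance (-1.86 ± 0.33), rho (-1.45 ± 0.27) and sog (-1.18 ± 0.26) fell, in 7, 6 and 5 of 7 libraries. The number of genes called ranged from 1 without replicate 7 to 75 without replicate 5 and was 12 without replicate 3, 12 without replicate 4 and 21 without replicate 6, and of the genes named here fz, stg, Ance, rho and sog lost their calls without replicate 7.

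For tin (140 cells with a UMI and 374 without), 2.12% of the 4424 genes tested were called (94 genes, 0.791% higher and 1.33% lower). Mef2 (0.51 ± 0.16, edgeR adjusted p = 0.110) and zfh1 (0.09 ± 0.13, adjusted p = 0.918) were not called. Mef2 had 68.7, 163 and 210 CPM in tin-positive cells, against 64.9, 105 and 197 CPM in tin-negative cells, with overlap. Mef2 passed the threshold without replicate 2 (0.67) or 6 (0.65). twi, which defined the cells and is given without a test, was at 634 ± 63.5 CPM in tin-positive and 476 ± 61.3 CPM in tin-negative cells. Of 15 early mesoderm genes tested 7 rose, among them stumps (0.74 ± 0.12), Ilp4 (0.48 ± 0.07), htl (0.45 ± 0.11) and stg (0.41 ± 0.08), and ths fell. htl lost its call without replicate 1, 3, 4 or 5 and stg without replicate 4. Act87E, an actin gene, rose by 0.72 ± 0.12. The number of genes called was 44 without replicate 4, 54 without replicate 5 and 151 without replicate 6. In sums of thinned counts 11 genes were called and stumps was not (0.44).

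The genes that fell with tin inside the double-positive cells included all 3 tested of 7 terminal and gut markers (srp, Abd-B and apt). srp is also 1 of 3 listed haemocyte markers, and gcm and gcm2 could not be tested. CrebA, a gene of secretory cells, was at 2.08 ± 2.52 CPM in tin-positive and 65.5 ± 34.4 CPM in tin-negative cells (log2 change -4.31 ± 0.38, edgeR adjusted p = 1.64e-08), and srp at 9.47 ± 5.53 and 70.7 ± 28.0 CPM (-2.74 ± 0.29, adjusted p = 5.00e-07). Ance was at 5.19 ± 4.84 CPM in tin-positive and 25.2 ± 9.20 CPM in tin-negative cells (-2.53 ± 0.36), Abd-B at 28.9 ± 25.5 and 90.5 ± 21.5 CPM (-1.65 ± 0.25) and E(spl)m7-HLH, a Notch target, at 9.31 ± 4.51 and 39.7 ± 14.1 CPM (-1.93 ± 0.27). All of these were lower in 7 of 7 libraries, but Abd-B turned to 0.18 at 5000 UMIs and was not called with DESeq2 (-2.08). The summed haemocyte markers ranged from 0 to 16.3 CPM over the libraries of tin-positive cells and from 30.8 to 206 CPM over those of tin-negative cells. Mef2-positive cells had lower srp as well (-1.57 ± 0.37, adjusted p = 0.0443), in 6 of 7 libraries, lost with any 1 of replicates 1, 2, 3, 4 or 7 left out. With zfh1, srp was not called (0.31 ± 0.25). The difference between the tin and zfh1 comparisons, which share the same 514 cells, was not tested.

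**Figure D5:**
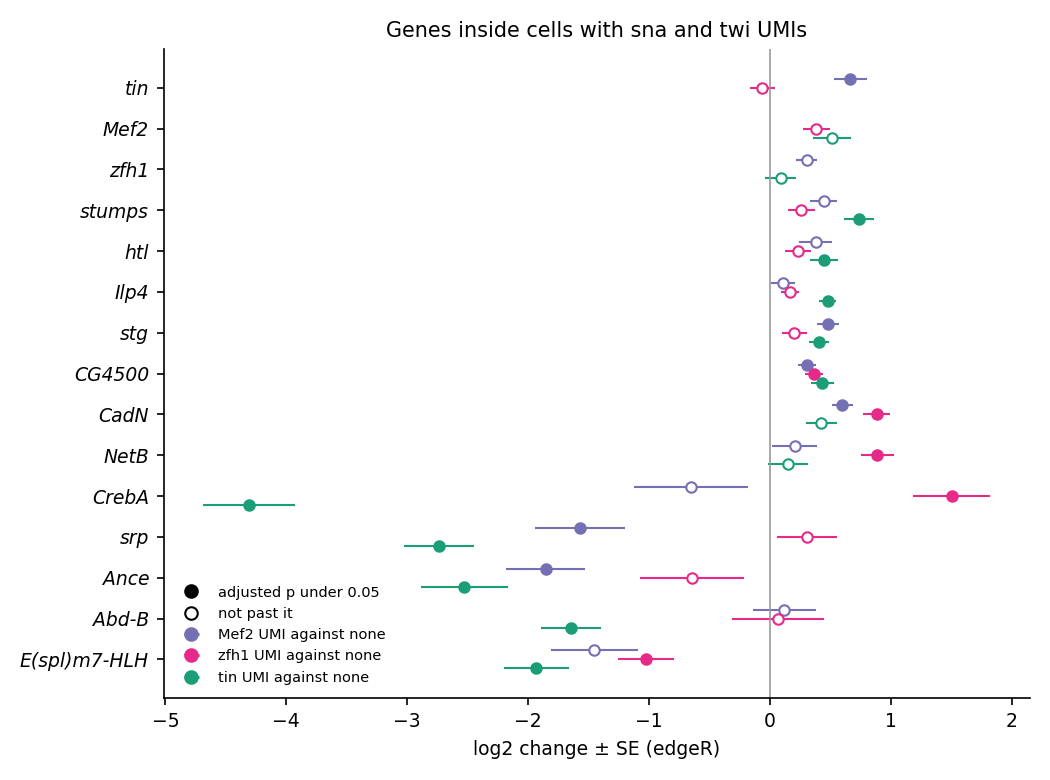
Log2 changes (edgeR, with SE bars) of the genes described, inside the double-positive cells, for cells with a UMI of Mef2, zfh1 or tin against those without it (colours). Filled points have an adjusted p under 0.05. CrebA lies at -4.31 for tin and at 1.502 for zfh1, and stumps, htl and Ilp4 lie to the right for tin.

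The mixed-species libraries were last set against the single-species libraries. Of 8183 genes tested on whole-library sums, 0% passed with edgeR. 387 had an unadjusted p under 0.05, DESeq2 called 8, and edgeR called 19 without replicate 3. twi was at 140 ± 27.8 CPM in mixed (n = 2) and 171 ± 20.6 CPM in single-species libraries (n = 5), sna at 100.3 ± 5.92 and 116 ± 14.2 CPM, and tin at 33.5 ± 2.55 and 37.4 ± 4.64 CPM. Mef2 was at 48.5 ± 11.8 CPM in mixed and 40.9 ± 4.64 CPM in single-species libraries, and zfh1 at 89.7 ± 6.14 and 79.4 ± 24.1 CPM. None of the 5 was called, with log2 changes from -0.25 ± 0.13 for twi to 0.29 ± 0.14 for Mef2 and adjusted p-values of 0.967 to 0.972. The 2 kinds of library also differ in the presence of D. virilis cells, which cannot be told apart from the kind.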

How the data were processed

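Drop-seq libraries were built from methanol-fixed cells with oligo-dT beads, per the labels' protocols; STAR, HTSeq and the build BDGP6 are named in the submitters' processing notes, with no versions of the tools. The authors deposited raw UMI counts per gene and barcode for each library, raw UMI counts of 1297 cells in the pooled table, and raw bulk read counts per gene. In the bulk libraries, 45.2% of counted D. melanogaster reads and 17.0% of D. virilis reads fell on no gene and were left out. Coordinates come from BDGP6.54.

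The 5 genes, the lists, gates and partner genes were chosen with earlier results of these data known. Each cell was thinned to 3000 UMIs (seed 20170) to call detection, and a library needed at least 5 cells in each of the 2 sets compared. Full counts were summed per library and tested with edgeR 4.0.16 (in R 4.3.3, with TMM scaling, the filterByExpr filter, its quasi-likelihood test and Benjamini-Hochberg adjustment at an FDR of 0.05), with the library as a block, since both sets come from each library. SE is the log2 change over the root of F. DESeq2 1.42.0 was an alternative. The tests were tried on simulated data first. Python 3.11.15 was used with scipy 1.17.1, numpy 2.4.6, matplotlib 3.10.9 and pandas 2.3.3.

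Named genes are the 5 members, listed genes past the threshold and, by rule, in each direction the 5 called genes of largest log2 change that had 1 sign in every library and at least 10 CPM in the higher set. Each of the 1297 pooled barcodes was found in 1 library table. The pooled and library counts were equal for every shared gene in 920 cells, replicate 3 differed throughout by a median ratio of 1.002, and 8 cells whose totals differed by over 5% were given no library. That 5% tolerance was chosen after the counts were seen. No same-species doublets were removed.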

Additional observations from a re-analysis of the deposited data

Results flagged for a closer look

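Of 98 sets of 5 or 7 libraries tested, 5 held a library that stood far from the others, and chance flags about 1 in 20. The share of cells with a twi UMI in replicate 3 was 17.6%, while the nearest other single-species library was at 24.4%. Inside the double-positive cells, tin stood at 259 CPM in the Mef2-positive cells of replicate 6, where the nearest library was at 168 CPM. In the same replicate tin was at 151 CPM in zfh1-negative cells (nearest 118 CPM) and at 114 CPM in tin-negative cells (nearest 80.1 CPM). Among cells without sna and twi UMIs, Mef2 stood at 114 CPM in the tin-positive cells of replicate 2, where the nearest library was at 56.0 CPM. Replicate 6 had the fewest cells.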

How the results depend on the processing

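The log2 changes of Mef2, zfh1 and tin between double-positive and double-negative cells stayed past the threshold in all 17 alternatives, from 2.58 to 3.97 for Mef2, 2.52 to 4.27 for zfh1 and 2.77 to 3.89 for tin. Below, each count is the number of genes called, and where a value moved the cause was not tested. The share of cells with a UMI followed depth: at 1500, 5000, no thinning and 2 UMIs needed it was 14.3, 30.1, 37.8 and 10.3% for twi, 10.6, 25.8, 33.6 and 5.84% for sna, 4.80, 13.02, 21.0 and 1.98% for Mef2, 8.19, 17.7, 25.5 and 4.40% for zfh1 and 3.61, 11.8, 18.5 and 1.53% for tin. Leaving out 1 library at a time gave 22.2 to 23.7% for twi, 17.9 to 19.1% for sna, 8.72 to 9.32% for Mef2, 13.3 to 14.0% for zfh1 and 7.19 to 7.56% for tin. With 2 UMIs needed, 13 pairs were above independence in place of 20, and Mef2 with stumps was at -0.046. With 1 library left out, 20 pairs stayed above and 19 to 20 below.
Double-positive against double-negative cells gave 1345 genes, and 832 with no replicate block, 568 with thinned sums, 874 with 2 UMIs needed and 1084 to 1311 with 1 library left out. Abd-B turned to -0.48 at 1500 UMIs. Cells with sna only against twi only gave 22 genes, and 13 with DESeq2, 84 with no filter, 11 with no block, 4 with thinned sums, 0 with 2 UMIs needed, 8 at 1500, 0 in the pooled barcodes and 19 to 28 with 1 library left out. There Mef2 turned to 0.16 with thinned sums, pgc to -0.43 with 2 UMIs needed, the dsRed transcript to 0.059 and sog to 0.035 at 1500 UMIs, sog to 0.15 at 5000, and hkb to -0.44, fkh to -0.61 and apt to -0.10 in the pooled barcodes.
Inside the double-positive cells, Mef2 gave 35 genes, and 10 with DESeq2, 125 with no filter, 10 with no block, 13 with thinned sums, 12 at 1500 UMIs, 83 at 5000, 18 in the pooled barcodes and 1 to 75 with 1 library left out. At 1500 UMIs CG14450 turned to -0.31, CR45361 to -0.016, CG4500 to -0.18 and fj to 0.67, and at 5000 fj to 0.026. zfh1 gave 17 genes, and 4 with DESeq2, 52 with no filter, 1 with no block, 10 with thinned sums, 0 with 2 UMIs needed, 11 at 1500, 140 at 5000, 1 in the pooled barcodes and 4 to 35 with 1 library left out. There tin turned to 0.55 with thinned sums, 0.28 at 1500 and 0.19 at 5000 UMIs and ran from -0.12 to 0.012 with 1 library left out, Mef2 turned to -0.42 with 2 UMIs needed, and srp turned to -0.16 at 1500 UMIs and ran from -0.077 to 0.55. tin gave 94 genes, and 48 with DESeq2, 184 with no filter, 30 with no block, 11 with thinned sums, 15 at 1500, 29 in the pooled barcodes and 44 to 151 with 1 library left out. There zfh1 turned to -0.14 at 5000 and -0.16 in the pooled barcodes and ran from -0.013 to 0.22, and Abd-B turned to 0.18 at 5000.
Without sna and twi UMIs, Mef2 gave 152 genes, and 87 with no block, 71 with thinned sums, 21 with 2 UMIs needed, 94 at 5000 and 97 to 140 with 1 library left out, and RYBP turned to 0.10 at 5000. zfh1 gave 311, and 483 with no filter, 135 with thinned sums, 199 with 2 UMIs needed, 472 at 1500, 136 at 5000, 143 in the pooled barcodes and 246 to 296, and nos turned to -1.83 with 2 UMIs needed. tin gave 191, and 127 with no block, 35 with thinned sums and 135 to 198. Mixed against single-species libraries gave 0 genes, and 8 with DESeq2, 29 with no filter and 0 to 19 with 1 library left out. No paired analysis was possible for these libraries because the 2 kinds share no replicate number. Too few cells remained with 2 UMIs needed for Mef2 and tin inside the double-positive cells and for tin outside them, and in the pooled barcodes for Mef2 outside them.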
